A study of Rattus norvegicus with 9 samples.

Results

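The genes described here are 37 genes of heart and skeletal muscle, which encode contractile proteins, calcium-handling proteins, muscle enzymes, natriuretic peptides and transcription factors. The list was chosen by gene name after earlier results on the counts of these same 9 libraries were known, so the levels are given as a description. A gene was used when its row in the table of 17465 genes was above 0 in at least 2 libraries, which left 34 of the 37. Just inside that rule were Nkx2-5 (above 0 in 4 libraries, 13 counts in all), Mb (7 libraries, 14 counts) and Myog (7 libraries, 19 counts). Just outside was Myod1, above 0 in 1 library. Ttn and Xirp1 are not analysed here. By the cells they are best known from, 17 of the 34 were grouped as heart genes, 5 as genes of heart and slow skeletal muscle, 5 as skeletal muscle genes and 7 as genes of both kinds of striated muscle.

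The RNA came from fetal lungs of Sprague-Dawley rats, and the ribosomal RNA had been depleted before sequencing. Of the 9 libraries, 3 were control lungs with no treatment, 3 were hypoplastic lungs with no treatment and 3 were hypoplastic lungs given AFSC-EV, the extracellular vesicles of amniotic fluid stem cells (called treated here). Per the series title the hypoplasia was secondary to oligohydramnios, a shortage of amniotic fluid. The sources used here give no fetal age, litter, dose or route. The labels number the lungs of a group without saying whether they came from separate animals, so p-values measure the spread between these samples only. Library totals ran from 56922779 to 88243188 estimated counts, and 3 counts, taken as the floor of detection, were 0.0359 to 0.0543 CPM (read counts relative to the library's total, scaled by the TMM method) across libraries. Summed over 9 lung epithelial markers, each library held 2120 to 5000 CPM, so lung transcripts were abundant in all 9.

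Heart and skeletal muscle contract when myosin heads of the thick filament pull on actin of the thin filament, and calcium released inside the cell permits this by way of the troponin complex. Atrial and ventricular heart muscle, and fast and slow skeletal muscle, use partly different genes for the same parts. In rodents heart muscle is not confined to the heart, because sleeves of atrial-type muscle continue from the left atrium along the pulmonary veins into the lung. RNA of a whole lung can also take in attached tissue, and in such bulk RNA fewer cells of a type and less RNA per cell cannot be told apart. Which tissue the muscle reads came from was not tested.

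The start-site windows of 4 genes on which the values below turn are printed to set side by side 3 genes that were highest in hypoplastic library 1 (Actc1, Myl7 and Tnni3) and 1 that was high in library 2 only (Nppa). They are from RefSeq, assembly GRCr8, and each runs 5′ to 3′ on the gene's strand from 250 bases before to 50 bases after the annotated start. Capitals mark a match to any of 5 motifs searched on both strands, namely the CArG box of serum response factor, the MEF2 site, CATTCC as bound by TEAD factors, AGATAA as bound by GATA factors, and TATAAA, the letters of the TATA box.
Actc1, chr3:121271778-121272077, strand minus: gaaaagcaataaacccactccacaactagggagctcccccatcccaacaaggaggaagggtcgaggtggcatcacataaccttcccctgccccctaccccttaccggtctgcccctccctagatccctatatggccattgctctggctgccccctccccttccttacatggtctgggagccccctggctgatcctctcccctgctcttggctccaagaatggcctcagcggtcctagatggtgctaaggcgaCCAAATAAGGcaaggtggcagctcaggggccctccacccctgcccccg
Myl7, chr14:84996575-84996874, strand minus: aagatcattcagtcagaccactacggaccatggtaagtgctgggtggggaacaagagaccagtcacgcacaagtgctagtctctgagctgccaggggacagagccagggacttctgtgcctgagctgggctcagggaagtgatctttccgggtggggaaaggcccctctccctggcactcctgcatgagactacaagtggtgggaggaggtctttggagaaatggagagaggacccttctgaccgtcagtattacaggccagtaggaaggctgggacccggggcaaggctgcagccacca
Tnni3, chr1:78342321-78342620, strand plus: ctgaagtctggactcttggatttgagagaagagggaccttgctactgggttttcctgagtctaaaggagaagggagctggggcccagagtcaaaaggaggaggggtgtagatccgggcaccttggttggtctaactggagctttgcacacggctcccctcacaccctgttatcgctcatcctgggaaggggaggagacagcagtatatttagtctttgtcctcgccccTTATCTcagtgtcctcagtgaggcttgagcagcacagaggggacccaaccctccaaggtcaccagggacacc
Nppa, chr5:163711934-163712233, strand plus: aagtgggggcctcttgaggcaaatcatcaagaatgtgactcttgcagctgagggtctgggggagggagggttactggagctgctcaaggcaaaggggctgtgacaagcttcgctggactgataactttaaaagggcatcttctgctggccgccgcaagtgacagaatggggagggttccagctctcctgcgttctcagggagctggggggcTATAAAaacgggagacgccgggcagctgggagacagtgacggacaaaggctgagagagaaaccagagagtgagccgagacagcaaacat
The Actc1 window held a CArG box with its first base 3 bases from the start. Tnni3 held TTATCT, which is AGATAA on the other strand, 22 bases before the start, and Nppa held TATAAA 39 bases before it. Myl7 matched none of the 5, which says only that these letters are not in this window. RefSeq windows were found for 29 of the 34 genes. A CArG box lay in those of 4 of the 29 genes (Acta1, Actc1, Ldb3 and Myl3), where 1.64% of all 33469 windows held one. The MEF2 site lay in 3 (Casq2, Mybpc3 and Myoz2), against 3.29% of all windows. CATTCC was found in 5 genes against 14.2% of windows, AGATAA in 4 against 11.6%, and TATAAA in 7 against 14.2%. The last can overlap the MEF2 site. A match is a description of the letters and not evidence of binding.

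The heart genes were high in hypoplastic libraries 1 and 2 and not in hypoplastic library 3. Ryr2, discussed with calcium handling below, made up much of their sum in most libraries and followed another pattern. Summed over the other 16 heart genes, the level was 21.5, 14.8 and 4.88 CPM in control libraries 1 to 3, 288, 141 and 4.63 CPM in hypoplastic libraries 1 to 3, and 7.57, 11.5 and 5.31 CPM in treated libraries 1 to 3. Hypoplastic library 3 was thus the lowest of all 9, and the control libraries already differed among themselves. The group levels were 13.7 ± 8.35 in control, 145 ± 142 in hypoplastic and 8.14 ± 3.14 CPM in treated lungs (mean ± SD, n = 3 each). The hypoplastic mean was 10.5 times the control mean and 17.8 times the treated mean, while hypoplastic library 3 alone was at 0.338 of the control mean. Of the hypoplastic sum, library 1 held 66.4%, library 2 held 32.5% and library 3 held 1.07%.

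Gene by gene the same libraries stood out. Of the 34 genes, 19 (55.9%) were highest in hypoplastic library 1 and 7 (20.6%) in hypoplastic library 2, where 14.6% and 16.1% of all tested genes were highest. The second place went to hypoplastic library 2 for 18 genes and to library 1 for 8. Each of these libraries exceeded every control library in 27 of the 34 genes (79.4%), where 29.8% and 31.2% of all tested genes did so in libraries 1 and 2. Hypoplastic library 3 exceeded them in 6 genes (17.6%), where 27.0% of tested genes did. The treated libraries exceeded them in 3, 7 and 4 genes (8.82%, 20.6% and 11.8%), where 23.1%, 25.0% and 28.5% of tested genes did. These counts describe genes that were listed with their levels known, and nothing is read from them beyond that.

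**Figure D1:**
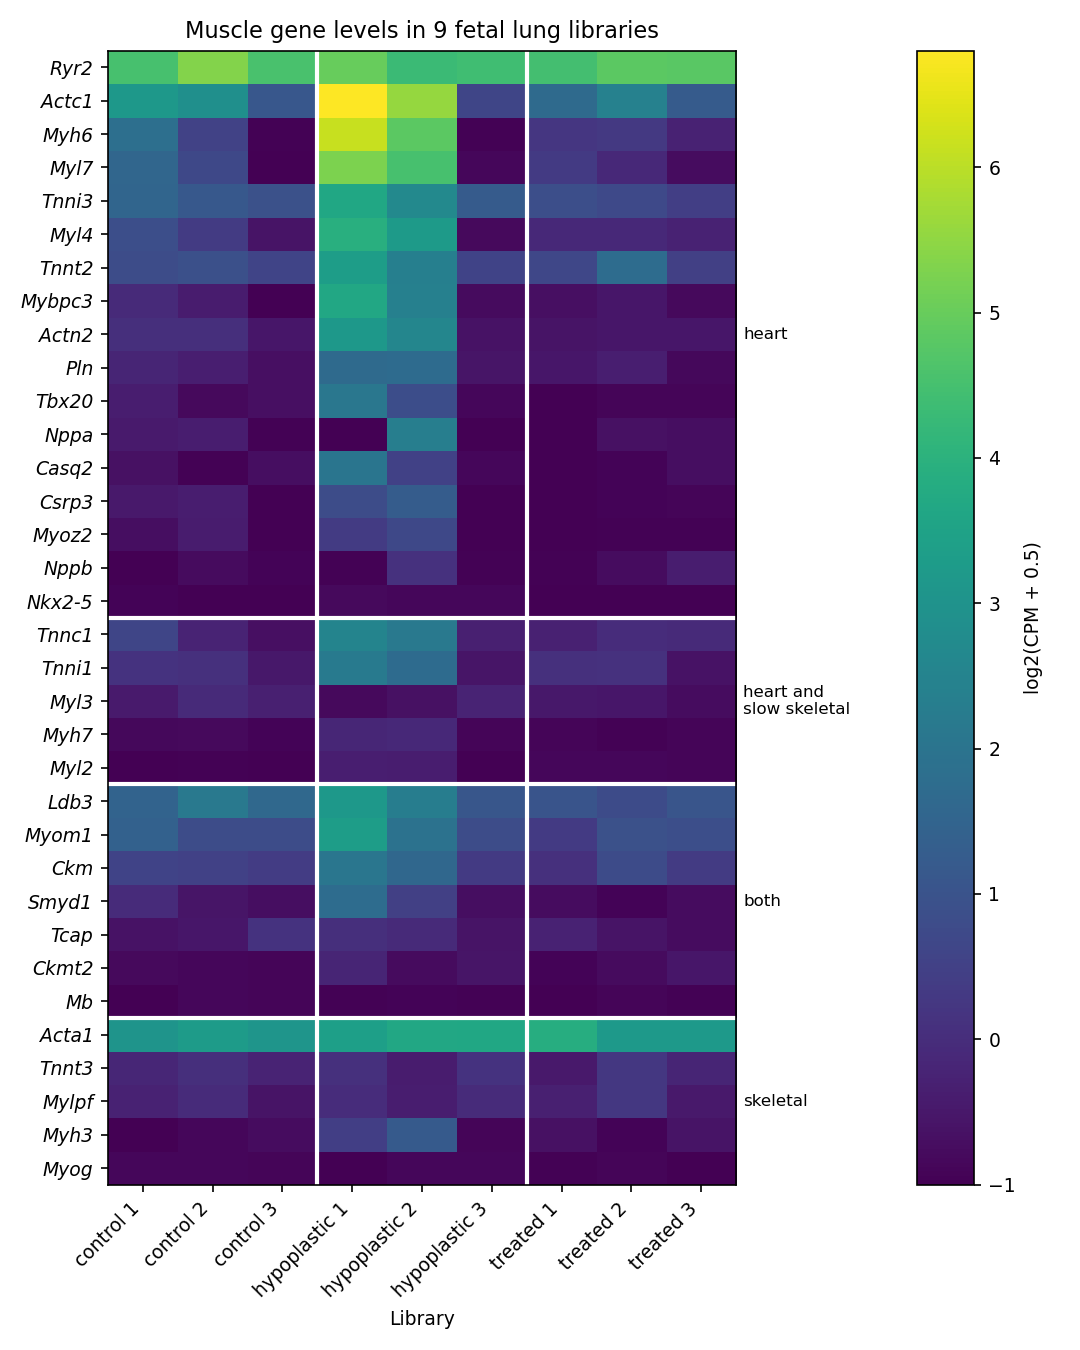
Level of each of the 34 muscle genes (rows) in each of the 9 libraries (columns), coloured by log2(CPM + 0.5), with lines between groups of genes and of libraries. Colours compare libraries within a row, since levels are not per transcript length. In most heart gene rows hypoplastic libraries 1 and 2 are the brightest and library 3 is not.

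Thick filament genes. Myh6 (Gene ID 29556) encodes the alpha myosin heavy chain, which in rodents marks atrial muscle and, after birth, ventricular muscle too. It was at 3.13, 0.963 and 0.0136 CPM in control, 70.9, 28.2 and 0.0181 CPM in hypoplastic, and 0.685, 0.729 and 0.338 CPM in treated libraries. Hypoplastic libraries 1 and 2 lay above all others, and control library 3 and hypoplastic library 3 were both under the floor of 3 counts. The fitted log2 fold change was 4.61 (SE 1.53) in hypoplastic against control lungs, with an edgeR adjusted p of 0.326, and -5.80 (SE 1.65) in treated against hypoplastic lungs, with an edgeR adjusted p of 0.826. The unadjusted edgeR p was 0.0136 for the former and 0.00592 for the latter difference. So neither difference passed that test once p-values were adjusted over all genes.

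Myl7 (Gene ID 289759), the atrial regulatory light chain of myosin, was at 2.48, 1.12 and 0.0 CPM in control, 37.6, 22.7 and 0.0543 CPM in hypoplastic, and 0.75, 0.442 and 0.103 CPM in treated libraries. Myl4 (Gene ID 688228), the atrial essential light chain, was at 1.33, 0.767 and 0.163 CPM in control, 14.6, 8.98 and 0.0724 CPM in hypoplastic, and 0.434, 0.43 and 0.338 CPM in treated libraries. Mybpc3 (Gene ID 295929), the cardiac myosin-binding protein that regulates cross-bridges, was at 0.46, 0.25 and 0.0 CPM in control, 12.2, 4.8 and 0.0905 CPM in hypoplastic, and 0.118, 0.191 and 0.0734 CPM in treated libraries. All 3 were highest in hypoplastic library 1 and next in library 2. Hypoplastic library 3 fell within the control range for Myl7 and Mybpc3 and below it for Myl4. Their fitted log2 fold changes in hypoplastic against control lungs were 4.09 (SE 1.42) for Myl7, 3.41 (SE 1.11) for Myl4 and 4.64 (SE 1.26) for Mybpc3, with edgeR adjusted p of 0.339, 0.325 and 0.317. In treated against hypoplastic lungs they were -5.51, -4.29 and -5.44, each with an edgeR adjusted p of 0.826.

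Of the ventricular partners, Myl3, a light chain of ventricular and slow skeletal muscle, ran the other way. It was at 0.245, 0.446 and 0.298 CPM in control and 0.0762, 0.131 and 0.362 CPM in hypoplastic libraries, and the treated libraries lay between 0.103 and 0.211 CPM. Hypoplastic libraries 1 and 2 were therefore below every control library for this gene, and its log2 fold change was -0.82 (SE 0.587, edgeR adjusted p 0.59). Myh7, the beta heavy chain, reached 0.396 and 0.441 CPM in hypoplastic libraries 1 and 2 and at most 0.0713 CPM elsewhere. Myl2, the ventricular regulatory light chain, reached 0.29 and 0.278 CPM there and at most 0.0527 CPM elsewhere. Both had too few counts outside those libraries to pass the filter and were not tested.

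Paired by function, Myh6, Myl7 and Myl4 supplied most of the counts, over Myh7, Myl2 and Myl3, where muscle reads were plentiful. Of the Myh6 and Myh7 counts, 99.4% were Myh6 in hypoplastic library 1 (exact Clopper-Pearson 95% interval 99.2 to 99.6) and 98.5% in library 2 (97.8 to 99.0). Control library 1, with 204 Myh6 and 4 Myh7 counts, gave 98.1% (95.1 to 99.5). Of the Myl7 and Myl2 counts, 99.2% and 98.8% were Myl7 in hypoplastic libraries 1 and 2. The share of Myl4 among Myl4 and Myl3 counts ran from 99.5% (98.8 to 99.8) and 98.6% (97.2 to 99.4) in hypoplastic libraries 1 and 2 to 16.7% (4.74 to 37.4) in library 3. It ran from 35.3% to 84.5% in control and from 67.3% to 76.7% in treated libraries. The shares are not corrected for transcript length, the intervals cover counting error only, and how reads shared by the near-identical Myh6 and Myh7 were counted is not known.

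**Figure D2:**
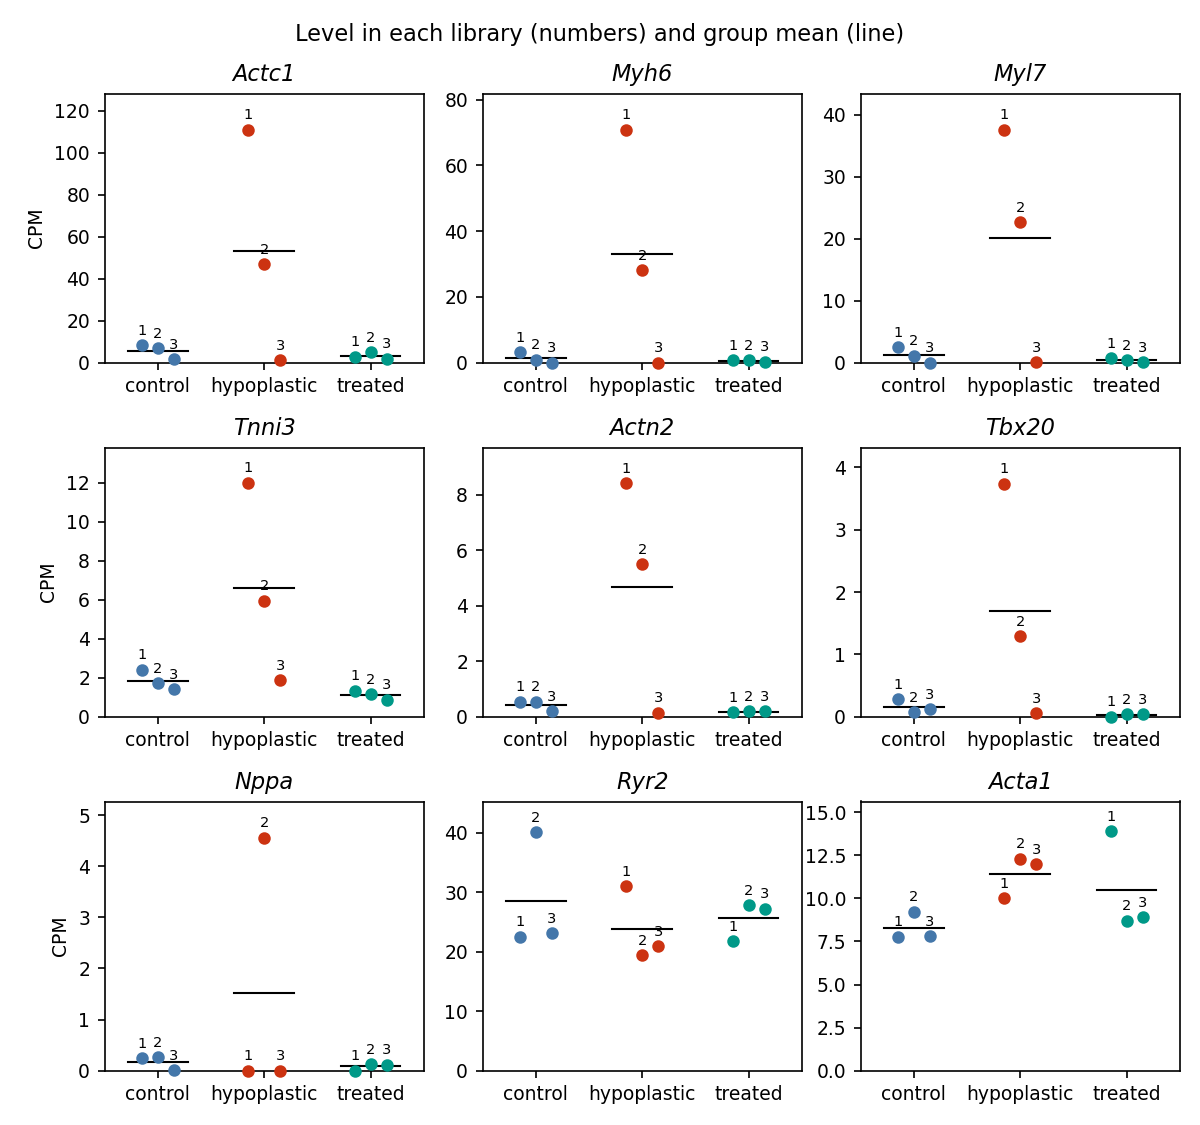
Level in CPM (linear axis from 0) of selected muscle genes, 1 panel each, with 1 numbered point per library and a line at each group mean. Hypoplastic libraries 1 and 2 stand above all other points for Myh6, at 70.9 and 28.2 CPM, and for Actc1, Myl7, Tnni3, Actn2 and Tbx20, while for Nppa only library 2 does and for Ryr2 and Acta1 neither does.

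Thin filament genes. Actc1 (Gene ID 29275), the cardiac alpha actin, was at 8.44, 6.87 and 1.67 CPM in control, 111, 47.0 and 1.05 CPM in hypoplastic, and 2.76, 4.9 and 1.85 CPM in treated libraries. The hypoplastic group thus held both the highest and the lowest library. Its log2 fold changes were 3.23 (SE 1.15, edgeR adjusted p 0.347) in hypoplastic against control and -4.05 (SE 1.20, edgeR adjusted p 0.826) in treated against hypoplastic lungs.

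The skeletal alpha actin Acta1 (Gene ID 29437) did not share this pattern. It was at 7.77, 9.22 and 7.82 CPM in control, 10, 12.3 and 12.0 CPM in hypoplastic, and 13.9, 8.7 and 8.91 CPM in treated libraries. All hypoplastic libraries, library 3 included, lay above all control libraries, with a fitted log2 fold change of 0.47 (SE 0.202). The edgeR adjusted p was 0.395. Of the Actc1 and Acta1 counts, Actc1 was 91.7% (91.1 to 92.3) and 79.3% (77.9 to 80.6) in hypoplastic libraries 1 and 2 and 8.04% (6.16 to 10.3) in library 3, with 17.6% to 52.1% in control and 16.6% to 36.0% in treated libraries. The actin genes are close copies of each other, the abundant smooth muscle actin Acta2 among them, so values of Actc1 and Acta1 are uncertain to the extent that shared reads were divided among them.

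Tnni3 (Gene ID 29248), the cardiac inhibitory subunit of troponin, was at 2.42, 1.71 and 1.42 CPM in control, 12.0, 5.94 and 1.86 CPM in hypoplastic, and 1.34, 1.15 and 0.866 CPM in treated libraries. Every treated library was below every library of both other groups. The log2 fold change was 1.84 (SE 0.549, edgeR adjusted p 0.317) in hypoplastic against control and -2.56 (SE 0.569, edgeR adjusted p 0.826) in treated against hypoplastic lungs. DESeq2 gave adjusted p of 0.0389 and 0.00487 for the same differences, and over all alternatives the adjusted p ran from 0.0389 to 0.998 and from 0.00487 to 1.0.

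Tnnt2 (Gene ID 24837), the cardiac subunit that ties troponin to tropomyosin, was at 1.27, 1.37 and 1.03 CPM in control, 9.7, 4.64 and 0.977 CPM in hypoplastic, and 1.09, 2.88 and 0.896 CPM in treated libraries. Treated library 2 stood above all control libraries here, and the log2 fold changes were 2.07 (SE 0.711) and -1.64 (SE 0.68), with edgeR adjusted p of 0.333 and 0.895. Tnnc1, the calcium-binding subunit of heart and slow muscle, was at 5.26 and 3.93 CPM in hypoplastic libraries 1 and 2 and at most 1.04 CPM elsewhere. Tnni1, the slow skeletal and fetal heart inhibitory subunit, was at 4.06 and 2.84 CPM in them and at most 0.597 CPM elsewhere. Tnnt3, the fast skeletal subunit, lay between 0.224 and 0.693 CPM over all 9 libraries with its highest value in treated library 2. Tnni3 formed 74.8% (72.1 to 77.4) and 67.7% (63.5 to 71.6) of the Tnni3 and Tnni1 counts in hypoplastic libraries 1 and 2, against 91.2% (84.3 to 95.7) in library 3. This share was 75.6% to 87.5% in control and 66.7% to 85.5% in treated libraries, so the treated libraries reached values as low.

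Z-disc and M-band genes. Actn2 (Gene ID 291245), the muscle alpha-actinin that anchors thin filaments at the Z-disc, was at 0.536, 0.535 and 0.19 CPM in control, 8.4, 5.5 and 0.145 CPM in hypoplastic, and 0.171, 0.191 and 0.191 CPM in treated libraries. Its treated libraries were close together, and hypoplastic library 3 was the lowest of the 9. The log2 fold changes were 3.52 (SE 0.976, edgeR adjusted p 0.317) and -4.66 (SE 1.07, edgeR adjusted p 0.826). DESeq2 gave adjusted p of 0.0139 and 0.00118, and over all alternatives the adjusted p ran from 0.00603 to 0.924 and from 0.00118 to 1.0.

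Ldb3 (Gene ID 498587), a Z-disc scaffold of striated muscle, was at 2.28, 3.91 and 2.59 CPM in control, 8.45, 4.49 and 1.61 CPM in hypoplastic, and 1.54, 1.21 and 1.57 CPM in treated libraries. Its treated libraries were all below the other groups, with log2 fold changes of 0.74 (SE 0.479, edgeR adjusted p 0.545) and -1.76 (SE 0.501, edgeR adjusted p 0.826). Myom1 (Gene ID 316740), which links thick filaments at the M-band, was at 2.18, 1.27 and 1.26 CPM in control, 9.65, 3.3 and 1.25 CPM in hypoplastic, and 0.764, 1.42 and 1.32 CPM in treated libraries. It too was high only in hypoplastic libraries 1 and 2, with log2 fold changes of 1.60 (SE 0.622) and -2.03 (SE 0.632) and edgeR adjusted p of 0.366 and 0.859. Csrp3, a Z-disc LIM protein, was at 1.27 and 1.89 CPM in hypoplastic libraries 1 and 2, and Myoz2, a calcineurin-binding Z-disc protein, at 0.793 and 1.11 CPM. Both were listed at 0 in control library 3, hypoplastic library 3 and treated library 1. Tcap, the cap of titin, was highest in control library 3, at 0.597 CPM.

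Calcium handling. Ryr2 (Gene ID 689560), the calcium release channel of heart muscle, was at 22.5, 40.1 and 23.1 CPM in control, 31.0, 19.4 and 20.9 CPM in hypoplastic, and 21.8, 27.8 and 27.2 CPM in treated libraries. Alone among the 17 heart genes it was highest in a control library, and the groups overlapped throughout. Its log2 fold change was -0.27 (SE 0.254, edgeR adjusted p 0.701) in hypoplastic against control and 0.11 (SE 0.254, edgeR adjusted p 0.969) in treated against hypoplastic lungs, and the former was 0.06 without control library 2. Pln (Gene ID 64672), phospholamban, which restrains the calcium pump, was at 0.368, 0.285 and 0.122 CPM in control, 2.74, 2.84 and 0.181 CPM in hypoplastic, and 0.197, 0.287 and 0.0587 CPM in treated libraries. Hypoplastic libraries 1 and 2 were level for Pln, unlike for Myh6. Its log2 fold changes were 2.93 (SE 0.846, edgeR adjusted p 0.317) and -3.37 (SE 0.861, edgeR adjusted p 0.826). Casq2, the calcium-storing calsequestrin of heart muscle, was at 3.57 and 0.931 CPM in hypoplastic libraries 1 and 2 and at most 0.138 CPM elsewhere.

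Energy and oxygen. Ckm (Gene ID 24265), the muscle creatine kinase, was at 0.98, 0.927 and 0.814 CPM in control, 3.72, 2.53 and 0.742 CPM in hypoplastic, and 0.566, 1.22 and 0.778 CPM in treated libraries. The control libraries were close together, and hypoplastic library 3 lay below them. The log2 fold changes were 1.38 (SE 0.51) and -1.45 (SE 0.503), with edgeR adjusted p of 0.359 and 0.875. Ckmt2, the mitochondrial creatine kinase of striated muscle, was at 0.0766, 0.0535 and 0.0407 CPM in control, 0.366, 0.0816 and 0.181 CPM in hypoplastic, and 0.0263, 0.0837 and 0.191 CPM in treated libraries. All hypoplastic libraries lay above all control libraries, though hypoplastic library 2 and control library 1 had 5 counts each. The log2 fold change of Ckmt2 was 1.88 (SE 0.82, edgeR adjusted p 0.391). The myoglobin gene Mb stayed at or below 0.0535 CPM in all 9 libraries, at the floor, so no difference was detectable.

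Natriuretic peptides, the hormones that heart muscle secretes when stretched, separated the 2 high libraries. Nppa (Gene ID 24602), the atrial peptide, was at 0.245, 0.268 and 0.0136 CPM in control, 0.0, 4.56 and 0.0 CPM in hypoplastic, and 0.0, 0.132 and 0.117 CPM in treated libraries. It had 279 counts in hypoplastic library 2 and 0 in library 1, the library richest in Myh6, so it was at least 99.6-fold higher in library 2 against a floor of 3 counts in library 1. Nppb, the brain natriuretic peptide gene, was at 0.0, 0.0892 and 0.0271 CPM in control, 0.0152, 0.588 and 0.0181 CPM in hypoplastic, and 0.0132, 0.0957 and 0.264 CPM in treated libraries. It likewise had 36 counts in library 2 and 1 in library 1, a ratio of library 1 to library 2 of 0.0259 (interval 0.000639 to 0.154). The fitted log2 fold change of Nppa between groups rested on library 2. It was 3.19 (SE 1.59, edgeR adjusted p 0.441) in hypoplastic against control lungs and -6.51 without that library, and -4.16 (SE 1.73, edgeR adjusted p 0.895) and 5.53 in treated against hypoplastic lungs. Values that pit a group near 0 against another depend on the small prior count of the fit.

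Transcription and chromatin. Tbx20 (Gene ID 315497), a T-box factor of heart development, was at 0.276, 0.0713 and 0.122 CPM in control, 3.74, 1.29 and 0.0543 CPM in hypoplastic, and 0.0, 0.0359 and 0.044 CPM in treated libraries. The treated libraries were at or below the floor and below all others. Its log2 fold changes were 3.43 (SE 0.951, edgeR adjusted p 0.317) and -5.94 (SE 1.26, edgeR adjusted p 0.826). DESeq2 gave an adjusted p of 0.00487 for the latter, for which the alternatives ran from 0.00461 to 1.0. Smyd1 (Gene ID 297333), a methyltransferase of striated muscle, was at 0.475, 0.178 and 0.108 CPM in control, 2.87, 0.898 and 0.109 CPM in hypoplastic, and 0.0922, 0.0239 and 0.103 CPM in treated libraries. Its treated libraries were also below all others, with log2 fold changes of 2.38 (SE 0.904, edgeR adjusted p 0.361) and -4.19 (SE 1.1, edgeR adjusted p 0.826). DESeq2 gave 0.0494 for the latter, for which the alternatives ran from 0.0489 to 1.0. The cardiac homeobox gene Nkx2-5 was at 0.0762, 0.049 and 0.0543 CPM in the hypoplastic libraries and at most 0.0306 CPM elsewhere, all near the floor. Myog, which drives skeletal muscle differentiation, was at 0.046, 0.0535 and 0.0407 CPM in control, 0.0, 0.049 and 0.0543 CPM in hypoplastic, and 0.0132, 0.0359 and 0.0 CPM in treated libraries, all at or below the floor.

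Skeletal muscle genes other than Acta1 were low. Summed over Myh3, Mylpf, Tnnt3 and Myog, the level was 0.781, 1.11 and 0.651 CPM in control, 1.91, 2.4 and 1.16 CPM in hypoplastic, and 0.671, 1.46 and 0.763 CPM in treated libraries. Most of the excess in hypoplastic libraries 1 and 2 was Myh3, the embryonic myosin heavy chain, at 0.854 and 1.81 CPM there and at most 0.162 CPM elsewhere. The log2 fold change of Myh3 was 4.11 (SE 1.14, edgeR adjusted p 0.317) in hypoplastic against control lungs and -3.15 (SE 0.962, edgeR adjusted p 0.826) in treated against hypoplastic lungs. Mylpf, the fast skeletal light chain, lay between 0.163 and 0.705 CPM with log2 fold changes of 0.40 and 0.03. Myod1 had 2 counts in all.

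Over all genes tested, the muscle genes made up 27 of 12966. In hypoplastic against control lungs edgeR called 0 of them at an adjusted p under 0.05, where it called 1 of all genes (0.00771%). Of the 27, 25 were higher in hypoplastic lungs, with a median log2 fold change of 2.43 against 0.01 over all genes, and 20 were higher at an unadjusted p under 0.05, where 6.67% of all genes were. DESeq2 called 2 of them (Actn2 and Tnni3), where it called 1.56% of all genes. For Nppa DESeq2 gave no adjusted p in any comparison, and this gene was counted as not called. The remaining 7 of the 34, Myh7, Myl2, Casq2, Mb, Nppb, Nkx2-5 and Myog, were set aside by the filter, which asks for counts in at least as many libraries as a group holds. Casq2 and Myh7 had most of theirs in hypoplastic libraries 1 and 2. In treated against hypoplastic lungs edgeR called 0 of the 27 and 0.0% of all genes, the median log2 fold change was -2.91 against -0.01, and 20 were lower at an unadjusted p under 0.05, where 3.56% of all genes were. DESeq2 called 4 (Actn2, Tnni3, Smyd1 and Tbx20), all lower, where it called 0.131% of all genes. The 2 comparisons share the hypoplastic libraries, so they are not independent.

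**Figure D3:**
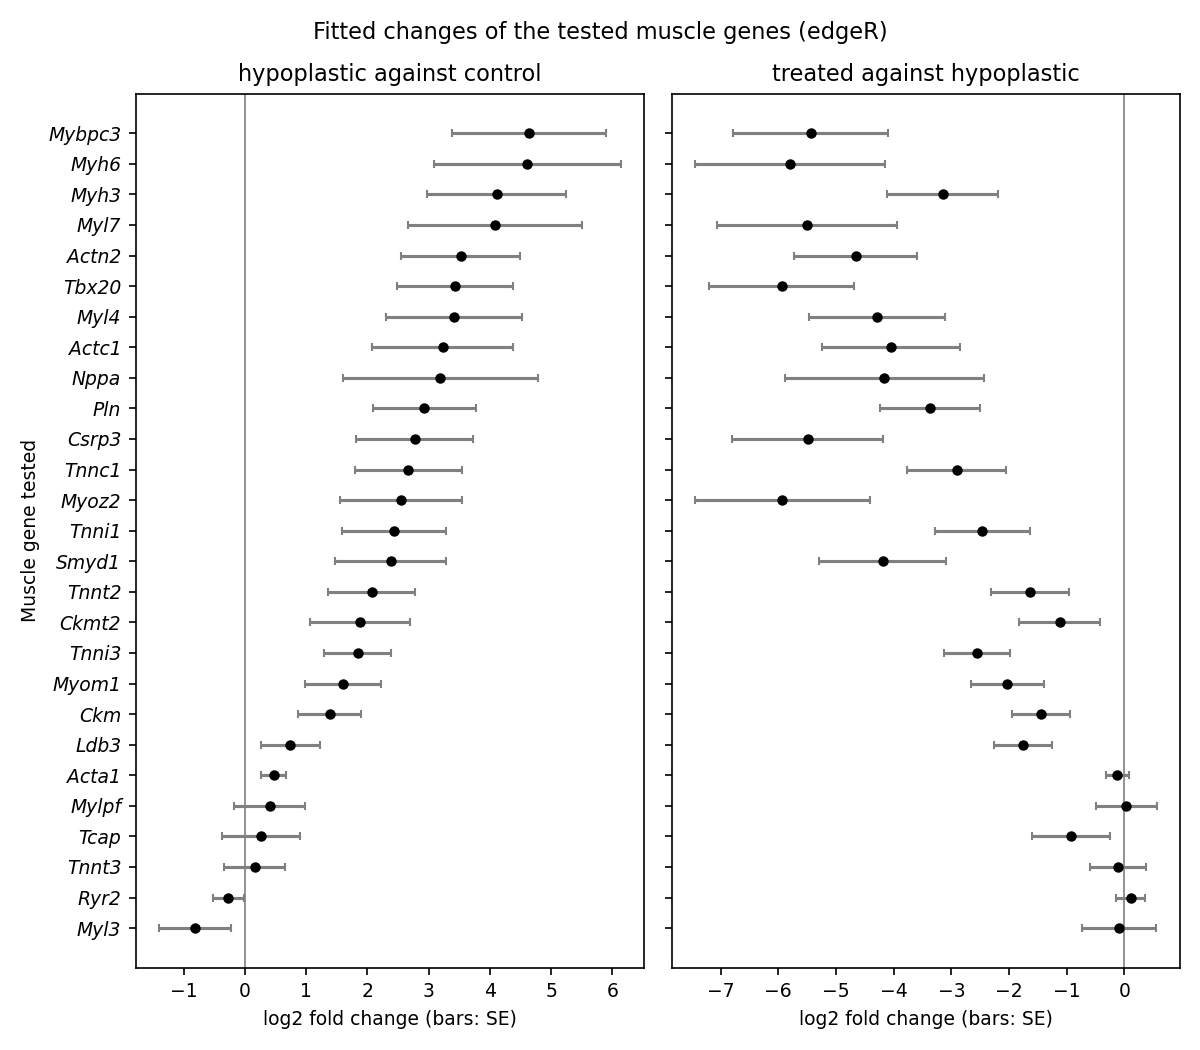
Fitted log2 fold change of the 27 muscle genes tested, with bars of 1 standard error, in hypoplastic against control lungs (left) and treated against hypoplastic lungs (right). In the left panel 25 of 27 points lie above 0 and in the right panel 25 of 27 below it, and both panels use the same hypoplastic libraries.

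Which genes were called turned on hypoplastic library 3. Without it edgeR called 10 of 31 muscle genes as higher in hypoplastic than in control lungs (Csrp3, Myh3, Actn2, Casq2, Tnni3, Myh7, Mybpc3, Tbx20, Pln and Myl4), where it called 0.342% of all genes. Without it edgeR also called 15 of 31 as lower in treated than in hypoplastic lungs, the same 10 with Actc1, Myoz2, Myh6, Smyd1 and Ldb3, where it called 0.334% of all genes. This omission keeps only hypoplastic libraries 1 and 2, in which these genes were high, so it too largely set the outcome. Casq2 and Myh7 were not tested with all 9 libraries. They were kept by the filter in this fit, with most of their counts in hypoplastic libraries 1 and 2. With libraries 1 and 2 left out instead, 1 hypoplastic library remains, and this choice was made after these libraries were seen to be high, so the outcome was largely set by it. In that fit edgeR called 0 of 28 in hypoplastic against control lungs (0.015% of all genes) and 0 of 28 in treated against hypoplastic lungs (0.0075% of all genes). The median log2 fold change was then -0.85 and 0.34.

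In treated against control lungs edgeR called 0 of the 27 genes and 0.0% of all genes, and DESeq2 called 0 of them and 0.108% of all genes. At an unadjusted p under 0.05 edgeR had none of the 27, where 2.5% of all genes were lower in treated lungs, and DESeq2 had 3, all lower, where 2.72% were. The log2 fold changes ran from -3.38 to 0.97, 21 of 27 were negative, and the median was -0.72, which was -0.10 without control library 1. Of the 34 genes, 6 had all treated libraries below all control libraries (Myl3, Tnni3, Ldb3, Tbx20, Smyd1 and Myog), where 5.02% of all tested genes did, and Myl2 alone had them all above, where 4.37% did. All hypoplastic libraries lay above all control libraries for Acta1, Ckmt2 and Nkx2-5, 3 of 34 genes, where 7.67% of tested genes did. All hypoplastic libraries lay above all treated libraries for Tnni3, Ldb3, Tbx20, Nkx2-5 and Smyd1, 5 of 34 genes, where 4.74% did. These percentages are of tested genes, and Myog, Myl2 and Nkx2-5 were not tested. Some separations rest on few counts. Smyd1 had 6 counts in hypoplastic library 3 and 7 in treated libraries 1 and 3. Tbx20 had 3 counts in hypoplastic library 3 and in treated libraries 2 and 3. Myog had 3 counts in treated library 2 and 3 in each control library. Ckmt2 had 5 counts in hypoplastic library 2 and 5 in control library 1. At these equal counts the libraries of Myog and Ckmt2 were separated by the scaling alone. Myl2 had 4, 4 and 3 counts in treated and 0, 1 and 0 in control libraries. Nkx2-5 had 5, 3 and 3 in hypoplastic and 2, 0 and 0 in control libraries.

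The ratio between hypoplastic libraries 1 and 2 differed from gene to gene. Among the 29 genes with at least 30 counts over both, the ratio of library 1 to library 2 had a median of 1.6, with an interval above 1 for 18 genes, below 1 for 5 and including 1 for 6. The ratio was 3.83 (95% interval 2.86 to 5.22) for Casq2, 3.19 (2.35 to 4.39) for Smyd1, 2.9 (2.24 to 3.78) for Tbx20, 2.52 (2.38 to 2.66) for Myh6 and 2.36 (2.26 to 2.46) for Actc1. It was lower for Myl7, at 1.66 (1.55 to 1.77), and for Pln, at 0.966 (0.78 to 1.2). Below 1 were Acta1 at 0.816 (0.734 to 0.907), Csrp3 at 0.668 (0.498 to 0.893) and Myh3 at 0.471 (0.335 to 0.655), beside Nppa and Nppb. The intervals cover counting error only, so they do not include the spread between lungs.

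**Figure D4:**
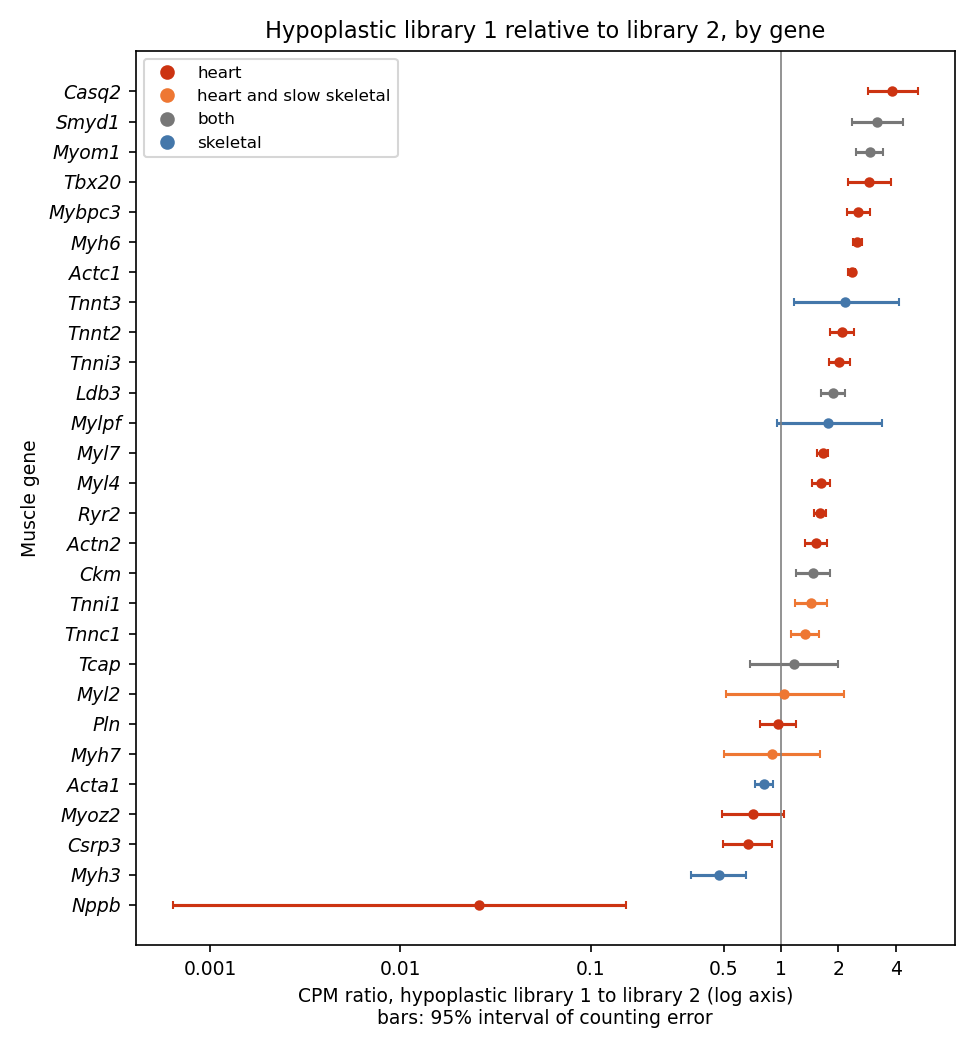
Ratio of the CPM in hypoplastic library 1 to that in hypoplastic library 2 (log axis) for muscle genes with at least 30 counts over both libraries, with exact 95% intervals of counting error. Casq2 at 3.83 and Myh3 at 0.471 lie on opposite sides of 1, Nppb rests on 1 count in library 1, and Nppa, with 0 counts there, is not drawn.

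Other genes of the same tissues were examined beside them. Of 39 further heart muscle genes in the table, 29 were tested and edgeR and DESeq2 called 0 in each comparison. In hypoplastic against control lungs 22 of the 29 had a positive and 7 a negative log2 fold change (median 0.42). By edgeR 3 were higher and 2 lower at an unadjusted p under 0.05, where 6.67% and 5.69% of all genes were. In treated against hypoplastic lungs the median was -0.24, with 3 lower, where 3.56% of all genes were, and none higher. The highest of these genes by level are active in other lung cells too: the gap junction gene Gja1 at 689 to 1180 CPM, the calcium pump gene Atp2a2 at 214 to 252 CPM, the intermediate filament gene Des at 33.9 to 223 CPM and the transcription factor gene Gata6 at 80.3 to 132 CPM. Chosen after its values were seen, Srl, which encodes the calcium-store protein sarcalumenin, was at 3.72 and 1.4 CPM in hypoplastic libraries 1 and 2 and at most 0.444 CPM elsewhere. Among atrial genes, Sln was at most 0.107 CPM and Bmp10 at most 0.049 CPM, and Gja5 was at 10.1, 18.6 and 8.92 CPM in hypoplastic libraries against 14.7 to 27.6 CPM in control. Among ventricular genes, Irx4 was at 0 in all 9 libraries. Hey2 was at 1.22, 1.04 and 0.923 CPM in hypoplastic libraries, all above the control range of 0.285 to 0.692 and the treated range of 0.275 to 0.587 CPM, with edgeR adjusted p of 0.359 and 0.826. Among 32 further skeletal muscle genes found in the data, 10 were tested, edgeR and DESeq2 called 0, and the median was 0.38 in hypoplastic against control lungs, with 1 higher and none lower at an unadjusted p under 0.05 by edgeR. In treated against hypoplastic lungs it was -0.38, with 2 lower and none higher. The shares of all genes given for the heart list apply to these counts too. After Des the highest were Pygm at 5.01 to 14.3, Mybpc2 at 4.5 to 8.49 and Chrna1 at 2.28 to 5.53 CPM.

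Some markers of other cell types were high in hypoplastic libraries 1 and 2, and others in library 1 only. The neuron and Schwann cell list of 6 genes, of which 5 were in the table, summed to 3.93 to 4.64 CPM in control, 4.65 to 13.6 in hypoplastic and 3.3 to 6.36 in treated libraries, with 13.2 and 13.6 in hypoplastic libraries 1 and 2. Sox10, a neural crest and glial factor, was at 2.26 and 2.2 CPM in them and at most 0.729 CPM elsewhere. In the oesophagus and airway squamous list of 5 genes the sum overlapped between groups, at 27.4 to 57.0, 20.1 to 56.0 and 20.4 to 49.2 CPM, and outside hypoplastic library 1 most of it was Krt4, at 17.9 to 21.1 CPM in hypoplastic and 25.6 to 54.2 CPM in control libraries. Krt13 was highest in control library 2, at 1.23 CPM. Krt5 was at 14.9 CPM in hypoplastic library 1 and at most 0.482 CPM elsewhere, and Krt14 at 14.9 CPM there, 0.931 in library 2 and at most 0.359 CPM elsewhere. Tp63, the basal cell factor, was at 8.29 CPM in library 1 and 0.936 to 1.6 CPM elsewhere. The smooth muscle list of 10 genes summed to 440 to 990 CPM in control, 852 to 1290 in hypoplastic and 583 to 1140 in treated libraries, and all 10 had a positive fold change in hypoplastic against control lungs (median log2 0.50), none at an unadjusted p under 0.05. The lung epithelial list summed to 2610 to 5000 CPM in control, 2120 to 2320 in hypoplastic and 2610 to 3110 in treated libraries. All 9 of its genes were lower in hypoplastic than in control lungs. Of them 6 were so at an unadjusted edgeR p under 0.05, where 5.69% of all genes were. In that comparison DESeq2 called 2 lung epithelial genes, where it called 1.56% of all genes. It also called 1 gene of the neuron and Schwann list and 1 of the squamous list, and edgeR called 0 in these lists. The part of these lists in the muscle gene result was not tested.

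**Figure D5:**
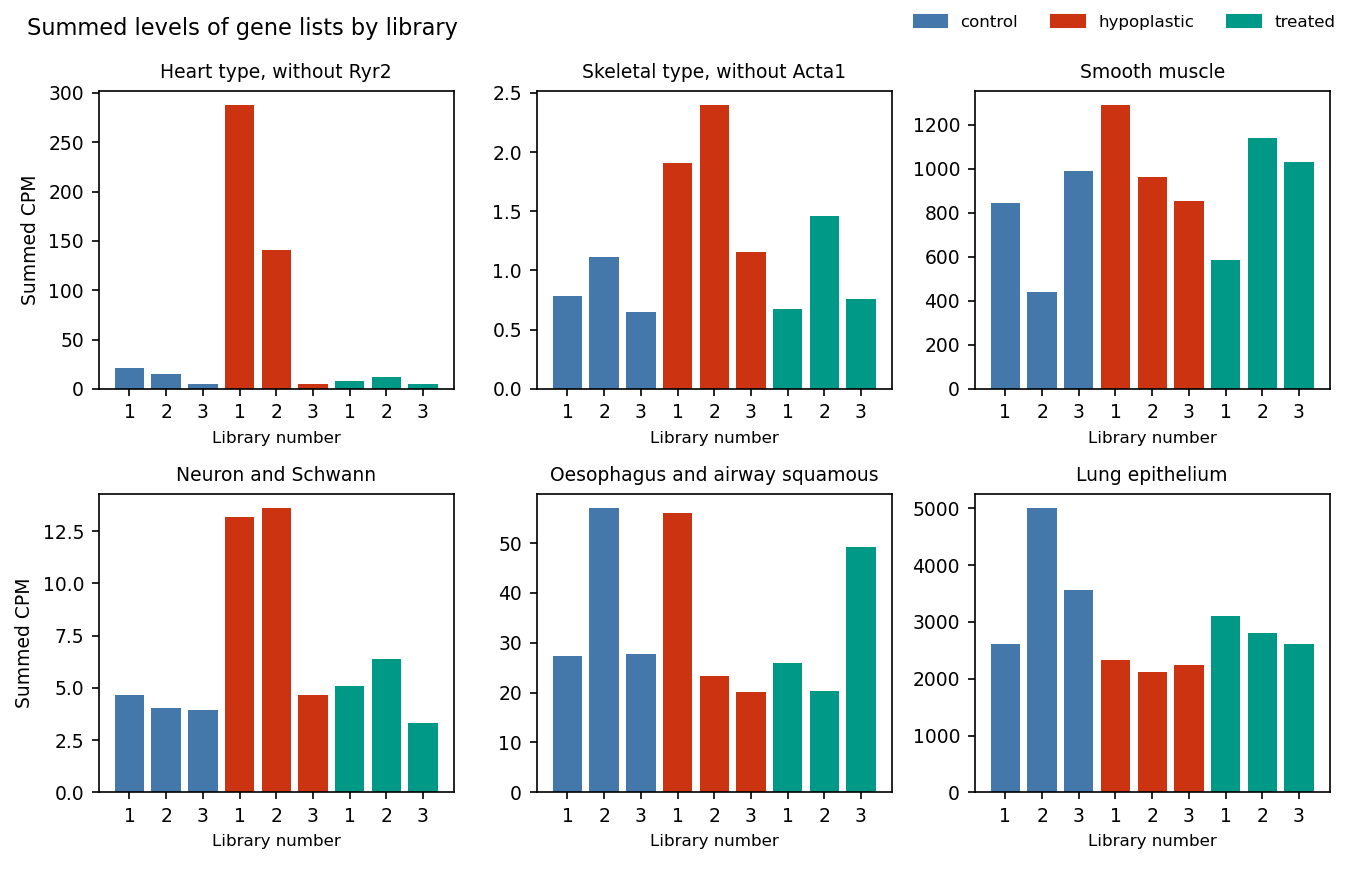
Summed level in CPM (linear axis from 0) of 6 gene lists, 1 panel each, with 1 bar per library, coloured by group. The heart genes without Ryr2 reach 288 and 141 CPM in hypoplastic libraries 1 and 2, and the neuron and Schwann list is also highest in these libraries, at 13.2 and 13.6 CPM.

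The genes most like the summed heart level over the 9 libraries were ranked by Pearson's r of log2(CPM + 0.5) among 11341 genes, as a description. The highest were Hspb7 (r = 0.968), a small heat shock protein gene of heart muscle, Col17a1 (0.964), a collagen gene of basal epithelial cells, Serpini1 (0.955), Krt15 (0.949), a basal keratin gene, and Sh3bgr (0.947). Next came Mfsd4a (0.938), Stmn2 (0.937), a neuronal gene, Ntrk3 (0.931), a neurotrophin receptor gene, and Gdf10 (0.929). Hspb7 was at 12.1 and 7.1 CPM in hypoplastic libraries 1 and 2 and 1.65 to 3.12 CPM elsewhere. Krt15 was at 63.0 and 18.0 CPM in them and 3.53 to 10.7 CPM elsewhere. The likeness of these genes rests on the same pair of libraries, since these also set the heart sum.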

How the data were processed

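RNA of the 9 lungs was extracted on the same day, per the labels. The authors deposited 1 table of estimated counts for 17465 NCBI Gene IDs. The submitters' processing notes name DESeq2 and the build rn7, and the aligner, annotation and treatment of shared reads were not given in these sources. Of the nonzero values 19.5% were whole, so the estimated counts, where the plan assumed gene counts, were rounded. Symbols and start-site windows came from RefSeq (GRCr8), and 99.1% of IDs matched. In this table Mylpf has the symbol Myl11.

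Genes were filtered by filterByExpr (12966 kept, 4499 set aside) and scaled by TMM. All 9 libraries entered 1 edgeR 4.0.16 quasi-likelihood fit (R 4.3.3) with a term per group and 6 residual degrees of freedom. P-values were adjusted over all genes by Benjamini-Hochberg. Standard errors are approximate. DESeq2 1.42.0 and limma 3.58.1 voom, other scalings and filters, the removal of 6 ribosomal and 7SL RNA rows (14.07% to 19.93% of counts), a replicate block and the leaving out of each library were alternatives. The script was tested on simulated data. The muscle genes and lists were chosen with earlier results of these data known. Per role, the genes with the highest mean CPM and all that edgeR or DESeq2 called with all 9 libraries were named with every value. The rule asked for a ranking per coding length, for which no lengths were at hand. The other genes of each role were given by ranges. Some genes that are not muscle genes of the list are not reported here.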

Additional observations from a re-analysis of the deposited data

How the results depend on the processing

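The number of genes called in hypoplastic against control lungs was 202 by DESeq2, 4 with only the 6 libraries compared, 2 with the replicate block, 2 with hypoplastic libraries 1 and 2 left out, and 0 to 45 with 1 library left out. In treated against hypoplastic lungs it was 17 by DESeq2, 1 with those 2 libraries left out, 0 with the replicate block, and 0 to 44 with 1 library left out. In treated against control lungs it was 14 by DESeq2, 0 with the block, and 0 to 1 with 1 library left out. Whether the numbers pair the lungs is not stated in the labels. Of 9 same-numbered pairs, 3 correlated above 0.1. These correlations cannot settle it, because deviations from a mean of 3 libraries are tied to each other within a group. With the block edgeR called none of the muscle genes. The median log2 fold change of the muscle genes in treated against control lungs ran from -0.903 to -0.1041 with 1 library left out. With Ryr2 included, the summed heart level of treated lungs was 33.7 CPM. It was 40.48 CPM relative to library totals without the ribosomal rows and without TMM scaling.

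Leaving out hypoplastic libraries 1 and 2 leaves 1 library, assumed to vary like the other groups and partly at or under 3 counts, so the reversals follow from which libraries were left out. Hypoplastic against control log2 fold changes were then negative: median -0.8536, Myh6 -6.09, Myl7 -4.402, Myl4 -3.324, Mybpc3 -1.318, Actc1 -2.421, Tnnt2 -0.3183, Ldb3 -0.8536, Myom1 -0.3284, Actn2 -1.492, Pln -0.4796, Ckm -0.2855, Nppa -6.52, Tbx20 -1.515 and Smyd1 -1.201. Treated against hypoplastic values were positive: median 0.3357, Myh6 4.895, Myl7 2.974, Myl4 2.447, Mybpc3 0.526, Actc1 1.602, Tnnt2 0.7478, Actn2 0.346, Pln 0.04779, Ckm 0.2141 and Nppa 5.541. Nppa also turned by limma voom (-0.6239 against control, where the cause was not tested) and without hypoplastic library 2 (-6.511 and 5.534). Over all single libraries left out, Nppa ran from -6.511 to 3.781 and from -4.76 to 5.534, and Ryr2 from -0.5062 to 0.05855 and from -0.01932 to 0.3485. Ryr2 turned without control library 2 (0.05855) and, in treated against hypoplastic lungs, without hypoplastic library 2 (-0.01932). Without hypoplastic library 1 the hypoplastic against control values were smaller: Actc1 2.095, Tnni3 1.083, Tnnt2 1.212, Ldb3 0.07351, Myom1 0.5432, Ckm 0.8663, Ckmt2 1.167, Tbx20 2.107 and Smyd1 1.027. In treated against hypoplastic lungs they were Tnnt2 -0.7832, Ldb3 -1.093, Myom1 -0.9654, Ckm -0.9382 and Ckmt2 -0.404. Of 666 fold values under alternatives, 615 kept direction and side of the threshold, 22 passed it newly and 29 reversed. Depth limits what can be said of genes near 3 counts in a library.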

Other observations

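Some genes known from mesothelium, the cell layer that covers lung and heart, and from the epicardium were highest in hypoplastic library 2, the library with Nppa, and others were not. Tbx18, a T-box factor of epicardium and venous pole, was at 5.37 CPM in library 2, at 1.16 CPM in library 1 and at most 0.613 CPM in the other 7 libraries. Msln, the mesothelial surface protein gene, was at 58.6 CPM in library 2 and 11.1 to 25.4 CPM elsewhere. Wt1 was at 19.2 CPM in library 2 and 1.63 to 11.2 CPM elsewhere, and Gata4, a cardiac and mesothelial factor gene, at 11.0 CPM and 1.23 to 4.2 CPM. Summed over the mesothelium and epicardium list, of which 5 of 6 genes were in the table, library 2 was at 260 CPM and the 9 libraries at 200 to 343 CPM. The other genes of that list were highest in control libraries, Upk1b at 10.1 CPM and Tcf21 at 31.3 CPM in library 3 and Krt19 at 294 CPM in library 2, against 5.22, 21.7 and 156 CPM in hypoplastic library 2. Tbx18 and Gata4 came from the heart muscle list. The 4 genes named were chosen after their values were seen, and edgeR called none of them, with adjusted p of 0.366 (Tbx18), 0.384 (Msln), 0.833 (Wt1) and 0.529 (Gata4) in hypoplastic against control lungs. Among the other lists, liver genes were at most 6.08 CPM in sum, in control library 2, and thymus genes 1.59 to 6.74 CPM, with 4.87, 1.59 and 6.32 CPM in control and 3.93, 5.89 and 4.65 CPM in hypoplastic libraries.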
